A study of Sus scrofa with 10 samples.

Results

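Antioxidant and thiol redox genes were followed in pig morulae after knockdown of DDB1, the adaptor protein of the CUL4 ubiquitin ligases. The set was a list of 33 gene names covering superoxide dismutases, catalase, peroxidases, the thioredoxin and glutaredoxin systems, glutathione synthesis, heme, quinone and aldehyde enzymes, and the NRF2 switch. Of these, 32 were found among the 24358 genes listed, 29 by the deposited name and PRDX1, TXN and GLRX through name tables, with 59 of the 47421 listed isoforms. HMOX1 was not analysed here. Of the 32, 28 had a mean of at least 1 FPKM (fragments scaled to gene length and library depth) over all libraries and were tested with the other genes above that level, 8476 in all. TXNRD2, TXNIP, NQO1 and KEAP1 lay below it.

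The samples were preimplantation pig embryos (Sus scrofa) at the morula stage, 5 libraries per group. In the DDB1_KD group matured oocytes received an siRNA against DDB1, and in the NC group a non-specific siRNA. All oocytes were then activated without sperm, so every embryo was a parthenote with maternal chromosomes alone, and RNA was taken at the morula stage. The number of embryos in a library, and whether libraries came from separate cultures, are not stated in what was available, so p-values measure the spread between these libraries, which may be technical.

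Superoxide dismutases convert superoxide to hydrogen peroxide, which catalase, glutathione peroxidases and peroxiredoxins then remove. Thioredoxin and glutaredoxins return oxidised protein thiols to the reduced state, with electrons passed on from NADPH by thioredoxin reductase or by glutathione and glutathione reductase. NRF2, the product of NFE2L2, switches on many of these genes and is held low by KEAP1, which delivers it to a CUL3 ubiquitin ligase. Oocytes store glutathione and redox proteins, and cultured embryos are known to be sensitive to oxidative stress.

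DDB1 itself was lower in DDB1_KD. It had 142, 195, 192, 151 and 262 estimated counts in DDB1_KD replicates 1 to 5 and 446, 479, 304, 568 and 753 in NC replicates 1 to 5, without overlap (log2 fold change -1.39, SE 0.28). The difference of group means on log2(FPKM + 1) had p = 0.00794 in a two-sided exact permutation test (252 assignments), the smallest that design can give, while the edgeR adjusted p over all genes was 0.977. Libraries held 32466912 to 50911295 estimated counts. Of 11 early embryo genes listed, 10 had at least 1 FPKM on average, with a summed level of 383 to 729.5 FPKM in DDB1_KD and 339 to 477 in NC. No cumulus cell marker (of 12 with a row) and no fibroblast marker (of 6) reached that level, and FSHR, INHA, CYP11A1, NR5A1 and AMH had no counts. Of 6 blood cell genes, CD74 (means of 65.4 FPKM in DDB1_KD and 78.1 in NC) and HBB (1.52 and 2.59) reached it, while TYROBP had no counts. Maternal oocyte transcripts, RNA the egg leaves behind, averaged 5.29, 4.76 and 4.68 log2 CPM (counts scaled to library size) in DDB1_KD replicates 2, 3 and 5, above the 2.31 to 4.37 of NC, and 1.60 and 3.36 in DDB1_KD replicates 1 and 4. On the same log2 CPM scale the 10 embryo genes averaged 5.16 to 5.64 in DDB1_KD and 5.15 to 5.73 in NC. The mitochondrial chromosome gave 24.4% of counts in DDB1_KD replicate 5, the highest share, against 8.58% to 18.4% in the other libraries.

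No redox gene passed the comparison of DDB1_KD with NC. With edgeR's quasi-likelihood test and p-values adjusted by Benjamini-Hochberg over all genes, 0 of 28 tested members had an adjusted p under 0.05, where 0.00% of all tested genes did. limma on log2(FPKM + 1) and DESeq2 also passed 0 members, with backgrounds of 0.00% and 0.0236%. Each gave 0 members higher and 2 lower at an unadjusted p under 0.05. Their backgrounds were 1.40% higher and 1.82% lower for limma, and 2.67% and 1.50% for DESeq2. At an unadjusted p under 0.05, edgeR gave 0 members higher (background 1.76% of all tested genes) and 2 lower, AKR7A2 and TXNRD1 (background 1.13%). Fitted values were above 0 for 14 members and below 0 for 14, against 50.0% above 0 among all tested genes. Their median log2 fold change was 0.0015, beside 0.00036 for all genes. GPX8, among those above 0, reached a mean of 1 FPKM through DDB1_KD alone. The groups did not overlap for 1 member, AKR7A2, lower in DDB1_KD (background 0.224% of tested genes in that direction, 0.413% in either). Each library holds the RNA of whole embryos, so fewer cells of a type and less RNA per cell cannot be told apart in any of these values.

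**Figure D1:**
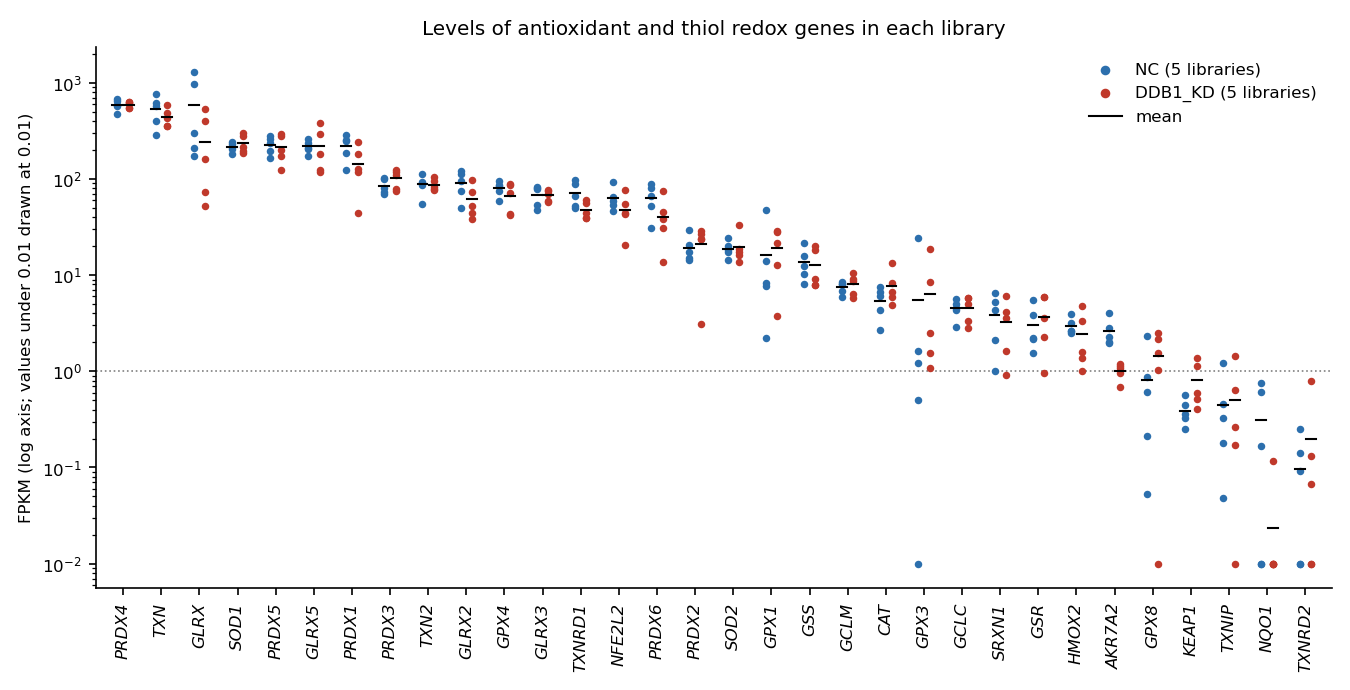
FPKM on a log axis for the 32 genes in each of 10 libraries, ordered by overall mean. Blue points are NC, red points DDB1_KD, black bars group means, and the dotted line marks 1 FPKM. PRDX4 has the highest mean by gene FPKM and is among the tightest, GLRX spreads widely in both groups, and AKR7A2 has all red points below all blue ones.

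The set was dominated by a few genes. PRDX4, TXN, GLRX, SOD1, PRDX5, GLRX5 and PRDX1 held 73.1% to 82.4% of the summed FPKM of the 32 genes in each library. By gene FPKM PRDX4, a peroxiredoxin of the endoplasmic reticulum, was the highest on average and ranked 151 of the 8476 tested genes. TXN, cytosolic thioredoxin, and GLRX, cytosolic glutaredoxin, came next with overall means of 486 and 419 FPKM, ranges that overlapped each other and that of PRDX4. By summed isoform FPKM GLRX was the highest instead, at 747 against 618 for PRDX4, so the order depends on the measure. SOD1, PRDX5, GLRX5 and PRDX1 followed at 225, 220.0, 219 and 182 FPKM and did not differ among themselves beyond their spread. The summed level of the 32 genes was 2095 to 3375 FPKM in DDB1_KD and 2627 to 4418 in NC, with the lowest sums in DDB1_KD replicates 5 and 2 and the highest in NC replicate 1. Without GLRX the ranges were 2021 to 2838 and 2324 to 3110.3. DDB1_KD replicate 5 held the lowest FPKM for 10 of the 28 tested members, and on TMM-scaled CPM for 5, when DDB1_KD replicate 2 held the lowest for 8.

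The 2 superoxide dismutases and catalase all had values above 0 (median log2 fold change 0.14), and none passed. SOD1, the cytosolic copper and zinc dismutase, had 214, 278, 303, 196 and 184 FPKM in DDB1_KD replicates 1 to 5 and 215, 243, 233, 181 and 204 in NC. The highest values were those of DDB1_KD replicates 2 and 3, while the other 3 DDB1_KD libraries lay at or below the NC middle, and the log2 fold change was 0.14 (SE 0.19), or 0.013 without DDB1_KD replicate 3 and 0.23 without DDB1_KD replicate 4. SOD2, the manganese dismutase of mitochondria, had 19.7 ± 7.69 FPKM (SD, n = 5) in DDB1_KD against 18.9 ± 3.75 (n = 5) in NC, with a fitted log2 fold change of 0.053 (SE 0.24). CAT, peroxisomal catalase, had 6.63, 13.2, 5.96, 4.88 and 8.22 FPKM in DDB1_KD and 6.65, 6.0, 2.69, 7.55 and 4.33 in NC. DDB1_KD replicate 2 was the highest and the rest overlapped. The log2 fold change of CAT was 0.51 (SE 0.34), and 0.27 without DDB1_KD replicate 2.

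Of 4 glutathione peroxidases, selenium enzymes apart from GPX8, 3 had values above 0 and GPX4 below (median 0.23), and none passed. For GPX1, GPX3 and GPX8 the libraries of 1 group differed by more than the group means. GPX4, which repairs oxidised membrane lipids, was the most abundant, with 86.2, 43.0, 71.1, 89.2 and 42.6 FPKM in DDB1_KD and 96.2, 59.5, 74.7, 86.5 and 85.5 in NC (log2 fold change -0.27, SE 0.24). Its lowest values were DDB1_KD replicates 2 and 5, and the log2 fold change was -0.14 without replicate 2. GPX1, the cytosolic enzyme, had 28.8, 21.7, 3.74, 27.8 and 12.7 FPKM in DDB1_KD and 7.74, 8.28, 14.0, 48.0 and 2.25 in NC. NC replicate 4 stood above all others, and the log2 fold change of GPX1 went from 0.17 (SE 0.71) to 1.22 without it. GPX3, a secreted form, had 1.54, 8.40, 18.7, 1.07 and 2.52 FPKM in DDB1_KD. In NC it had 1.22, 1.61, 24.4 and 0.504 FPKM in replicates 1, 2, 3 and 5 and no count in replicate 4, which allows up to 3 counts. NC replicate 3 and DDB1_KD replicate 3 were the highest of their groups, so the log2 fold change of 0.30 (SE 1.30) became 2.98 without NC replicate 3. GPX8, a peroxidase of the endoplasmic reticulum, ranged from no count to 2.52 FPKM in DDB1_KD and from 0.0526 to 2.31 FPKM in NC (log2 fold change 0.85, SE 1.06). Without NC replicate 4 the log2 fold change of GPX8 was 1.78. GPX8 averaged 1.46 FPKM in DDB1_KD and 0.810 in NC, so it passed the filter of 1 FPKM through DDB1_KD alone. A value above 0 was thus favoured for GPX8.

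Of the 6 peroxiredoxins and SRXN1, 3 had values above 0 and 4 below (median -0.077), and none passed. PRDX1 and PRDX6 had the lowest fold changes among them. Peroxiredoxins reduce peroxides through a reactive cysteine. PRDX1 (ENSSSCG00000003914; chromosome 6, 165824594 to 165861430, plus strand, susScr11), a cytosolic member, had 119, 44.7, 184, 241 and 128 FPKM in DDB1_KD replicates 1 to 5 and 252, 251, 288, 124 and 188 in NC. NC replicate 4 lay among the DDB1_KD values and DDB1_KD replicate 4 among those of NC, although all 5 DDB1_KD libraries were below the NC median. The log2 fold change of PRDX1 was -0.62 (SE 0.36), with an edgeR adjusted p of 0.977. Leaving out 1 library gave -0.81 (without DDB1_KD replicate 4) to -0.38 (without DDB1_KD replicate 2). On the other strand PRDX1 overlaps AKR1A1 (2.46 FPKM) over 591 and MMACHC (6.91 FPKM) over 646 of its 36837 bases, both far below the level of PRDX1. PRDX6, which uses glutathione and also handles lipid peroxides, had 45.5, 30.6, 38.5, 74.6 and 13.6 FPKM in DDB1_KD and 87.8, 80.1, 31.2, 67.0 and 51.8 in NC. DDB1_KD replicate 5 was the lowest, and DDB1_KD replicate 4 and NC replicate 3 crossed into the other group. Its log2 fold change was -0.68 (SE 0.38).

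PRDX4 varied least of the tested members between libraries, with 626, 542, 632, 617 and 547 FPKM in DDB1_KD and 581, 478, 671, 589 and 641 in NC. Its highest library was 1.40 times its lowest, and its log2 fold change was 0.017 (SE 0.15). PRDX3, the mitochondrial peroxiredoxin, had 101 ± 22.6 FPKM (SD, n = 5) in DDB1_KD against 85.5 ± 15.3 (n = 5) in NC, with a fitted log2 fold change of 0.27 (SE 0.20). Without DDB1_KD replicate 3 it was 0.17. PRDX5 had 214 ± 71.03 FPKM (SD, n = 5) in DDB1_KD against 226 ± 46.8 (n = 5) in NC, and -0.077 (SE 0.23) on the same scale, and overlaps TRMT112 on the other strand over 81 of its 3374 bases. PRDX2, another cytosolic member, had 21.3 ± 10.4 FPKM (SD, n = 5) in DDB1_KD against 19.3 ± 6.24 (n = 5) in NC, including a single low value of 3.08 FPKM in DDB1_KD replicate 5. The log2 fold change of PRDX2 was 0.11 (SE 0.45) with all libraries and 0.40 without that one. SRXN1, sulfiredoxin, which restores over-oxidised peroxiredoxins, ranged from 0.909 to 6.11 FPKM in DDB1_KD and 1.004 to 6.48 in NC (log2 fold change -0.21, SE 0.56).

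**Figure D2:**
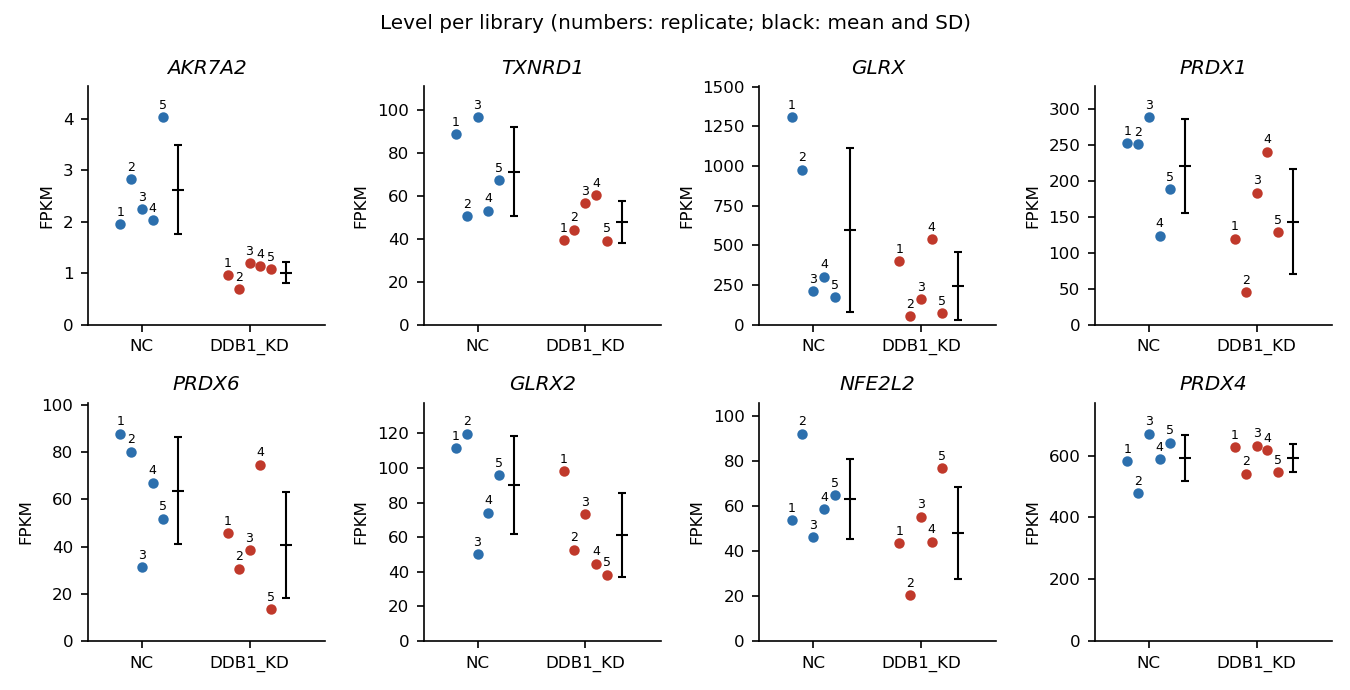
FPKM per library for 8 genes, in NC (blue) and DDB1_KD (red), with replicate numbers beside the points and the mean and SD in black, each panel on its own axis from 0. AKR7A2 has no overlap between groups, TXNRD1 overlaps in the low NC replicates 2 and 4, GLRX is high in NC replicates 1 and 2, and PRDX4 is level.

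In the thioredoxin system 1 tested member had a value above 0 and 2 below (median -0.23), and the reductase had the smallest p. TXNRD1 (ENSSSCG00000000843; chromosome 5, 80170334 to 80236277, minus strand), the selenium-containing cytosolic thioredoxin reductase, had 39.1, 44.2, 56.4, 60.2 and 39.0 FPKM in DDB1_KD and 88.6, 50.5, 96.5, 52.9 and 67.2 in NC. All 5 DDB1_KD libraries were below the NC median, with overlap through NC replicates 2 and 4. The means were 47.8 ± 9.91 FPKM (SD, n = 5) in DDB1_KD against 71.2 ± 20.7 (n = 5) in NC. The log2 fold change was -0.56 (SE 0.21), ranked 77 by p among 8476 genes, and the edgeR adjusted p was 0.977. Leaving out 1 library gave -0.65 (without DDB1_KD replicate 3) to -0.44 (without NC replicate 3). TXN, its substrate, had 591, 433, 481, 359.7 and 357 FPKM in DDB1_KD and 767, 614, 573, 288 and 397 in NC. NC replicate 1 was the highest and NC replicate 4 the lowest of all 10, so DDB1_KD lay within the NC range (log2 fold change -0.23, SE 0.26). For TXN it was -0.057 without NC replicate 1 and -0.37 without NC replicate 4. TXN2, mitochondrial thioredoxin, had 87.6 ± 11.9 FPKM (SD, n = 5) in DDB1_KD against 87.8 ± 20.6 (n = 5) in NC, with a fitted log2 fold change of 0.011 (SE 0.18). The mitochondrial reductase TXNRD2 had 28, 14, 0, 127 and 0 counts in DDB1_KD and 45, 0, 24, 24 and 0 in NC. TXNIP, an inhibitor of thioredoxin, had 0 to 386 counts in DDB1_KD and 16 to 337 in NC. A count of 0 allows up to 3 counts, by counting error alone.

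Of 4 glutaredoxins, 1 had a value above 0 and 3 below (median -0.27), and none passed. GLRX, which removes glutathione from protein thiols, was the most variable of the abundant members. GLRX (ENSSSCG00000039731; chromosome 2, 102424796 to 102437858, minus strand) had 399.7, 51.9, 159.5, 537 and 73.5 FPKM in DDB1_KD replicates 1 to 5 and 1308, 978, 209, 303 and 172 in NC. NC replicates 1 and 2 were the highest and DDB1_KD replicates 2 and 5 the lowest, with 25.2 times between the extremes, and the remaining libraries of both groups were intermixed. The log2 fold change was -1.33 (SE 0.71), with an edgeR adjusted p of 0.977, and it was -0.84 without NC replicate 1 and -1.75 without DDB1_KD replicate 4. In the same order of libraries, the maternal transcript means were 1.60, 5.29, 4.76, 3.36 and 4.68 log2 CPM in DDB1_KD. They were 3.37, 3.60, 4.37, 2.51 and 2.31 log2 CPM in NC. The part of maternal RNA in the GLRX, PRDX1 and PRDX6 values was not tested. RHOBTB3 overlaps GLRX on the other strand at 2.37 FPKM, far below it.

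GLRX2, a glutaredoxin of mitochondria, had 98.0, 52.8, 73.2, 44.7 and 38.4 FPKM in DDB1_KD and 111, 119.8, 50.3, 74.1 and 95.7 in NC. DDB1_KD replicate 1 was within the upper NC values and NC replicate 3 within the DDB1_KD values, and the log2 fold change was -0.54 (SE 0.32). GLRX3, which binds iron-sulfur clusters in the cytosol, had 67.8 ± 9.07 FPKM (SD, n = 5) in DDB1_KD against 68.6 ± 16.4 (n = 5) in NC. Its log2 fold change was 0.0059 (SE 0.18), and that of GLRX5, the mitochondrial glutaredoxin of iron-sulfur cluster assembly, was -0.0029 (SE 0.29). GLRX5 spread more in DDB1_KD (118 to 385 FPKM) than in NC (175 to 259 FPKM), a difference in spread that was not tested.

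Of 4 glutathione synthesis and recycling genes, 3 had values above 0 and 1 below (median 0.067), and none passed. GCLC, the catalytic subunit of the rate-limiting glutamate-cysteine ligase, had 4.54 ± 1.39 FPKM (SD, n = 5) in DDB1_KD against 4.50 ± 1.05 (n = 5) in NC, with a fitted log2 fold change of 0.011 (SE 0.27). Its modifier subunit GCLM had 8.06 ± 1.99 FPKM (SD, n = 5) in DDB1_KD against 7.50 ± 1.10 (n = 5) in NC, or 0.12 (SE 0.23). GSS, glutathione synthetase, ranged from 7.92 to 20.2 FPKM in DDB1_KD and 8.04 to 21.8 in NC (log2 fold change -0.092, SE 0.33). GSR, which regenerates reduced glutathione, had 0.950, 5.88, 2.27, 3.60 and 5.87 FPKM in DDB1_KD and 5.50, 3.83, 2.22, 2.17 and 1.56 in NC, with the lowest value in DDB1_KD replicate 1 and a log2 fold change of 0.28 (SE 0.50). DDB1_KD replicates 2 and 5 were the highest, the groups overlapped, and the log2 fold change of GSR was 0.0094 without DDB1_KD replicate 5 and 0.60 without NC replicate 1.

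AKR7A2 gave the only separation of the groups among the members. AKR7A2 (ENSSSCG00000003491; chromosome 6, 77754173 to 77761667, minus strand), an aldo-keto reductase that reduces aldehydes, had 0.961, 0.688, 1.19, 1.13 and 1.08 FPKM in DDB1_KD and 1.95, 2.83, 2.25, 2.03 and 4.03 in NC. Counts were 64, 45, 77, 57 and 78 against 104, 187, 116, 158 and 294, and every DDB1_KD library was below every NC library. The means were 1.010 ± 0.200 FPKM (SD, n = 5) in DDB1_KD against 2.62 ± 0.862 (n = 5) in NC, with a fitted log2 fold change of -1.34 (SE 0.37). It ranked 4 by p of 8476 genes, and leaving out 1 library gave -1.42 (without NC replicate 1) to -1.17 (without NC replicate 5). AKR7A2 did not pass over all genes, at an adjusted p of 0.977 by edgeR and 0.667 by DESeq2. Its single isoform passed DESeq2 over isoforms (adjusted p = 0.0132) and not edgeR (adjusted p = 0.9997). AKR7A2 was listed among the members with its small p already known, so its place in the set is not independent evidence.

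From start to end, introns included, AKR7A2 shares 3549 of its 7495 bases with MRTO4, a ribosome assembly gene on the plus strand (chromosome 6, 77747561 to 77757721), and 916 with PQLC2. MRTO4 averaged 50.97 FPKM, well above AKR7A2, and no source at hand says whether reads were counted by strand. MRTO4 had 49.9, 52.1, 37.5, 58.0 and 39.4 FPKM in DDB1_KD and 56.4, 44.5, 48.7, 59.7 and 63.6 in NC, with overlap and a log2 fold change of -0.21 (SE 0.16). How much of the shared stretch lies in exons of both genes was not measured. Reads from such exons may not be told apart without strand, so the level of AKR7A2 is uncertain.

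HMOX2, the constitutive heme oxygenase, had 3.36, 1.37, 1.59, 4.77 and 1.014 FPKM in DDB1_KD and 3.96, 2.61, 2.52, 2.64 and 3.14 in NC. DDB1_KD held both the highest and the 3 lowest values. HMOX2 was at -0.32 (SE 0.38) on the log2 scale, and with 1 library left out it was -0.64 (without DDB1_KD replicate 4) to -0.13 (without DDB1_KD replicate 5). NQO1, a quinone reductase often used to read NRF2 activity, was barely detected. It had 0, 0, 0, 8 and 0 counts in DDB1_KD and 54, 15, 42, 0 and 0 in NC, with no count in 4 DDB1_KD and 2 NC libraries.

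Of the NRF2 switch, NFE2L2 was well expressed and KEAP1 was not. NFE2L2, which encodes NRF2, had 43.6, 20.4, 55.3, 44.1 and 76.9 FPKM in DDB1_KD and 53.8, 92.1, 46.1, 58.4 and 64.8 in NC. DDB1_KD replicate 2 was the lowest and NC replicate 2 the highest, with overlap elsewhere. Its log2 fold change was -0.36 (SE 0.33), and -0.63 (without DDB1_KD replicate 5) to -0.14 (without NC replicate 2) with 1 library left out. KEAP1 (ENSSSCG00000023667; chromosome 2, 69277996 to 69290053, minus strand) stayed under 1 FPKM on average. It had 461, 371, 135, 152 and 192 counts in DDB1_KD and 98, 149, 86, 101 and 212 in NC. All 5 DDB1_KD libraries had more FPKM than the NC median, DDB1_KD replicates 1, 2 and 4 were above every NC library, and NC replicates 2 and 5 lay within the DDB1_KD range. In the fit without a filter on low values its log2 fold change was 1.04 (SE 0.44), with an edgeR unadjusted p of 0.0307 and adjusted p of 0.688. In that fit 1029 of 18578 genes had an unadjusted p under 0.05 in either direction. The other members below the filter were at -3.79 (SE 2.02) for NQO1, 0.83 (SE 1.63) for TXNRD2 and 0.12 (SE 1.06) for TXNIP.

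**Figure D3:**
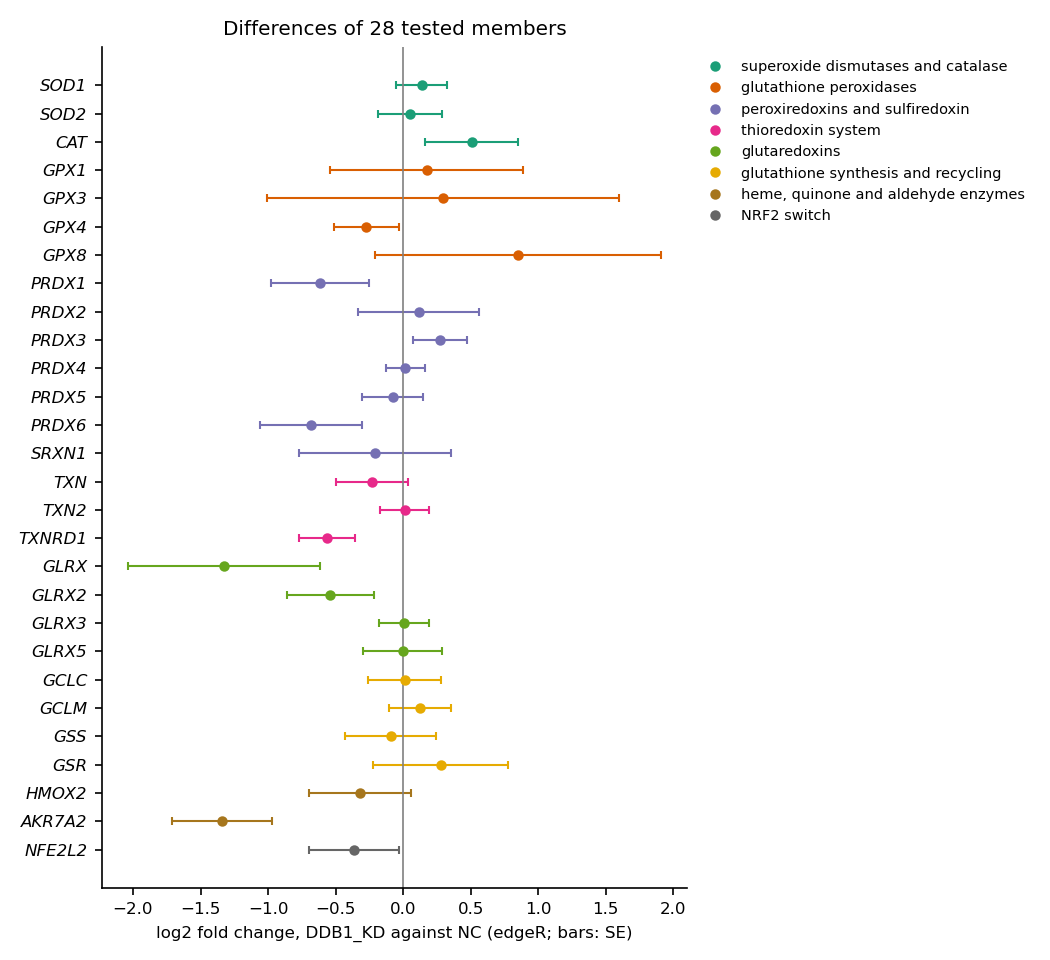
Log2 fold change of DDB1_KD against NC (edgeR, x axis) with its SE for the 28 tested genes, coloured by role. AKR7A2 and GLRX lie farthest to the left, at -1.34 and -1.33, and GPX3 and GPX8 have the widest bars.

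No member isoform passed edgeR. Of 36 member isoforms tested among 11250, 0 passed edgeR's adjusted p (background 0.00889%, 1 isoform, of a gene outside the set), and 1 passed DESeq2, that of AKR7A2 (DESeq2 background 0.604%, 68 isoforms). Values were above 0 for 17 and below 0 for 19, against 50.6% above 0 among all isoforms. At an unadjusted p under 0.05 edgeR gave 0 higher (background 1.97%) and 3 lower (background 1.39%), those of AKR7A2 and TXNRD1 and a GLRX3 isoform counted in 1 library. Groups did not overlap for 1 member isoform, that of AKR7A2 (background 0.213% lower, 0.373% either way). The members with at least 2 tested isoforms were PRDX2, PRDX4, TXN, TXN2, GLRX, GLRX3 and GCLC. PRDX4 was carried by ENSSSCT00000013313 (96.2% of summed isoform FPKM in DDB1_KD, 96.8% in NC), TXN by ENSSSCT00000060068 (92.4% and 94.0%), and GLRX by ENSSSCT00000051052 (76.6% and 77.4%). That GLRX isoform held 72.9% to 80.7% in single DDB1_KD libraries and 76.2% to 78.5% in NC, while the level of the gene moved widely. PRDX2 was carried mainly by ENSSSCT00000015010 (67.2% and 68.9%).

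GLRX3 changed isoform from library to library while its gene FPKM varied less. ENSSSCT00000059632 had 59.7, 60.3, 79.9 and 72.5 FPKM in DDB1_KD replicates 1, 2, 4 and 5 and 52.6 and 84.6 in NC replicates 2 and 3. In those libraries ENSSSCT00000011771 had 5.30 to 11.2 FPKM. ENSSSCT00000011771 was instead the main form, at 148, 153 and 93.9 FPKM, in DDB1_KD replicate 3 and NC replicates 1 and 4, and another isoform, ENSSSCT00000044715, had 98.7 FPKM in NC replicate 5 alone. By gene FPKM GLRX3 ranged only from 57.6 to 77.0 in DDB1_KD and 47.7 to 81.9 in NC. Single isoforms at 148 and 153 FPKM lay above that range. The summed isoform FPKM of GLRX3 averaged 102 against 68.2 by gene FPKM, so whether its level held depends on the measure. GCLC split similarly, with ENSSSCT00000054492 at no more than 0.188 FPKM in 5 libraries and 2.10 to 3.32 in the other 5, which came from both groups. Isoforms of 1 gene share most of their sequence, so these splits depend on how reads were assigned. The minor TXN2 isoform ENSSSCT00000051686, singled out after its values were seen, had 3.43, 11.3, 12.6, 10.2 and 0.942 FPKM in DDB1_KD and 2.05, 1.17, 1.16, 4.98 and 5.52 in NC (log2 fold change 1.36, SE 0.73). DDB1_KD replicates 2, 3 and 4 were above all NC libraries, and DDB1_KD replicates 1 and 5 were not.

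**Figure D4:**
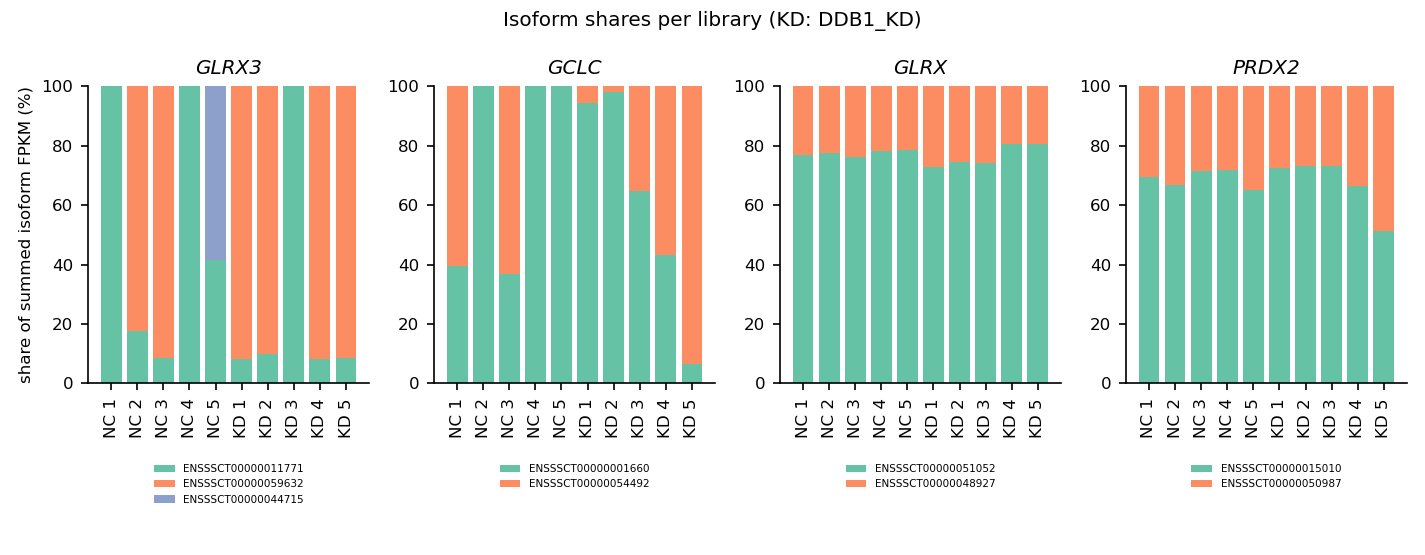
Share of the summed isoform FPKM (%) held by each isoform of GLRX3, GCLC, GLRX and PRDX2 in every library. GLRX3 and GCLC switch between isoforms from library to library in both groups, and GLRX and PRDX2 keep a steadier split.

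Other redox genes were read from 8 lists of 133 names, of which 124 had a row and 90 were tested. None passed edgeR's adjusted p. At an unadjusted p under 0.05, 1 was higher and 1 lower (backgrounds 1.76% and 1.13% of all tested genes). Of the 90, 35 had a value above 0 and 55 below, against 50.0% above 0 among all tested genes. Their median log2 fold change was -0.17, beside 0.00036 for all genes. NRF2 partners and other NRF2 target genes had 18 of 21 values below 0 (median -0.26). PTGR1 in that list averaged 1.75 FPKM in NC and 0.940 in DDB1_KD. It passed the filter through NC alone, so a value below 0 was favoured. With 1 library left out, 16 to 19 of 21 were below 0. The median was then -0.44 (without DDB1_KD replicate 4) to -0.14 (without DDB1_KD replicate 5). CBR4, a mitochondrial carbonyl reductase in that list, had 3.05 ± 0.503 FPKM (SD, n = 5) in DDB1_KD against 4.47 ± 0.678 (n = 5) in NC, with a fitted log2 fold change of -0.54 (SE 0.23). It was the 1 gene of the 90 without overlap (background 0.224% of tested genes in that direction, 0.413% in either). AKR1A1, an aldehyde reductase, had 1.48 ± 1.48 FPKM (SD, n = 5) in DDB1_KD against 3.45 ± 2.24 (n = 5) in NC, with a fitted log2 fold change of -1.22 (SE 0.61). It overlaps PRDX1 on the other strand over 591 bases. PRDX1 averaged 182 FPKM, well above AKR1A1, and whether reads were counted by strand is not stated. The level of AKR1A1 is therefore uncertain. Among the members, the NRF2 targets TXNRD1, PRDX1, SRXN1 and TXN had values below 0 and GCLC, GCLM and GSR above 0.

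Genes that supply NADPH had 10 of 14 values below 0 (median -0.23), and those of cystine uptake and glutathione turnover 4 of 6 (median -0.40). With 1 library left out the NADPH list had 9 to 12 of 14 below 0 and a median of -0.38 (without DDB1_KD replicate 4) to -0.15 (without DDB1_KD replicate 3). The cystine and glutathione list then had 3 to 5 of 6 and -0.77 (without DDB1_KD replicate 4) to -0.14 (without NC replicate 5). Selenoprotein synthesis and other selenoproteins had 9 of 13 above 0 (median 0.21). PSTK, the kinase that prepares the selenocysteine tRNA, had 3.38 ± 0.831 FPKM (SD, n = 5) in DDB1_KD against 2.15 ± 0.545 (n = 5) in NC, with a fitted log2 fold change of 0.63 (SE 0.33). Of the selenium enzymes among the members, TXNRD1 and GPX4 had values below 0 and GPX1 and GPX3 above. Thioredoxin-fold proteins and disulfide isomerases had 9 of 20 above 0 (median -0.089), with a median of -0.15 (without DDB1_KD replicate 4) to 0.057 (without DDB1_KD replicate 3) when 1 library was left out. In that list TXNL4B, a thioredoxin-like protein linked to splicing, had 8.75 ± 2.93 FPKM (SD, n = 5) in DDB1_KD against 5.13 ± 1.14 (n = 5) in NC, with a fitted log2 fold change of 0.80 (SE 0.27), and PDIA3, a disulfide isomerase of the endoplasmic reticulum, had 86.4 ± 7.58 FPKM (SD, n = 5) in DDB1_KD against 114 ± 22.7 (n = 5) in NC, with a fitted log2 fold change of -0.40 (SE 0.19).

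Methionine sulfoxide reductases and sestrins had 2 of 6 above 0 (median -0.21), with a median of -0.28 (without NC replicate 3) to -0.084 (without NC replicate 5) when 1 library was left out. Among them was SESN1, a stress-induced sestrin, with 6.06 ± 2.16 FPKM (SD, n = 5) in DDB1_KD against 3.97 ± 1.38 (n = 5) in NC, with a fitted log2 fold change of 0.65 (SE 0.34). Glutathione S-transferases had 5 of 7 above 0 (median 0.19) but from 2 to 6 of 7 when 1 library was left out, with a median of -0.20 (without DDB1_KD replicate 3) to 0.34 (without NC replicate 3). The remaining list, of other peroxidases, dismutases and copper chaperones, had 1 of 3 above 0, and from 0 to 2 with 1 library left out. GPX2 in it averaged 1.18 FPKM in NC and 0.841 in DDB1_KD, so it passed the filter through NC alone. The lists were not tested as sets.

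**Figure D5:**
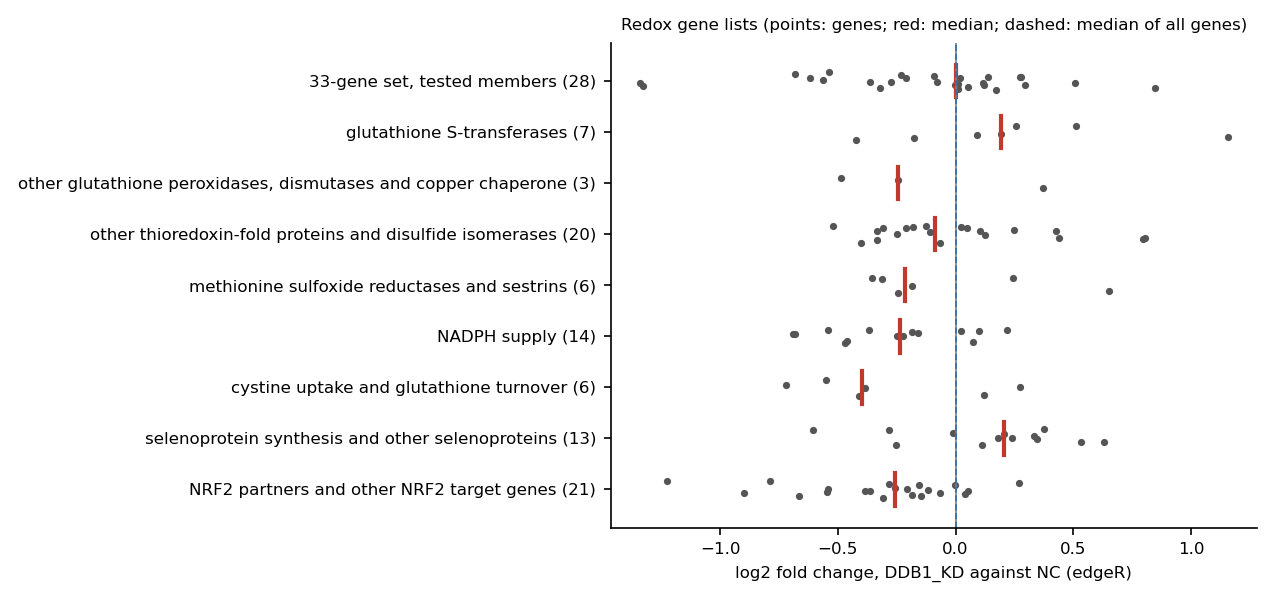
Log2 fold change (edgeR, x axis) of each tested gene in the set and in 8 further redox lists, with the list median in red and the median of all genes as a dashed line. The members are centred on the dashed line, and the list that mixes NRF2 partners with other NRF2 target genes has 18 of 21 points left of 0.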

How the data were processed

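RNA of 10 pig morula samples was sequenced in pairs on an Illumina instrument from fragmented cDNA, per the labels' protocols. The authors deposited FPKM values for genes and isoforms, per the file headers, set to 0.0001 where the count is 0. The deposited values headed as counts are whole numbers and are called estimated counts here. They may derive from coverage, so their sampling error may not be that of reads. fastp, HISAT2, StringTie, edgeR, HOMER and ChIPseeker and the build susScr11 are named in the submitters' processing notes, with no role or order. An aligner and a counter for each table are therefore not given in the sources used here. Columns spelled DBB1 were matched to DDB1_KD by group word and number. Of 4977 tested genes with several isoforms, 4275 had a summed isoform FPKM more than 1% above the gene FPKM, and levels of such genes are low against those of single-isoform genes.

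Features averaging 1 FPKM or more over 10 libraries were tested with edgeR 4.0.16 in R 4.3.3 (glmQLFit, glmQLFTest, TMM, group alone) on the counts, with Benjamini-Hochberg adjustment over all of them. Standard errors are the coefficient without shrinkage over the square root of F. DESeq2 1.42.0 and limma 3.58.1 (pseudocounts 1 and 0.1) were run beside it, and scripts used Python 3.11.15, pandas 2.3.3 and matplotlib 3.10.9. The edgeR fits were also run on simulated data, with an outcome not reported here. The coefficient of variation between libraries of 1 group, from edgeR's common dispersion, was 47.6% for genes and 100.5% for isoforms. Features that did not pass may therefore still differ. Other alternatives were RLE and total count scaling, omission of mitochondrial genes, no filter, filterByExpr, the replicate block and each library left out. Promoter and protein motifs were not analysed here. The text names DDB1, every member, and of the further lists the 3 of smallest p in each direction. Symbols came from the table for 17451 genes, an Ensembl name table for 951 and RefSeq names for 719. The members and lists were chosen with earlier results of these data known. Near-identical gene copies can share reads, so single values of PRDX, TXN and GPX genes are uncertain. Depth was 32466912 to 50911295 estimated counts per library.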

Additional observations from a re-analysis of the deposited data

Results flagged for a closer look

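Among 58 sets of 5 values (28 tested members and DDB1 in each group), 4 held a library whose gap to the next exceeded 0.71 of the whole range, where chance gives about 1 in 20. GPX1 had 48.0 FPKM in NC replicate 4, the highest of NC, against 14.0 in the next library. GPX3 had 24.4 FPKM in NC replicate 3, against 1.61 in the next. SOD2 had 33.1 FPKM in DDB1_KD replicate 4, against 18.5 in the next. PRDX2 had 3.08 FPKM in DDB1_KD replicate 5, the lowest of its group, against 23.8 in the next.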

How the results depend on the processing

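Every edgeR and limma setting passed 0 genes (245 at an unadjusted p under 0.05 with all libraries), also with each library left out, and DESeq2 passed 2 genes, DDB1 and YAP1, with 353 at an unadjusted p under 0.05. Isoforms passed were 1 in the first fit, 0 with no filter, 68 by DESeq2, 2 by limma with a pseudocount of 0.1, 0 with the replicate block and 0 to 2 when 1 library was left out. The cause was not tested. DDB1 was at -1.36 by DESeq2, where it passed (adjusted p = 0.0069), and at -1.49 to -1.28 with 1 library left out. Members lower at an unadjusted p under 0.05 numbered 2, and 1 (without NC replicate 1, AKR7A2 alone) to 4 (without DDB1_KD replicate 4, with GLRX and PRDX6 added) when 1 library was left out. Over all genes those fits gave 148 and 888 at an unadjusted p under 0.05. Those higher numbered 0 to 1 of the 28 tested members (GPX3 without NC replicate 3), a count that leaves out KEAP1. The members' median log2 fold change was -0.14 to 0.034 with 1 library left out, and -0.11 and -0.13 by limma with pseudocounts 1 and 0.1. In DESeq2 the AKR7A2 isoform was among the 68.

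Deviations of same-numbered libraries correlated from -0.142 to 0.354, and 2 of 10 libraries correlated best with their own number. Such values cannot show whether a number marks a shared culture or batch. With the replicate block 0 genes passed (241 at an unadjusted p under 0.05), and the log2 fold changes that turned sign were PRDX2 at -0.10 and GCLC at -0.0042. Of 532 member values under alternatives, 0 passed the adjusted threshold 37 turned sign with 1 library left out and 14 under other settings, in 13 members, and 15 members kept their sign throughout, AKR7A2, TXNRD1, GLRX, PRDX1 and PRDX6 among them. GLRX5 was at 0.011 with RLE scaling, 0.017 with total counts, 0.0019 without mitochondrial genes and 0.011 by DESeq2. With total counts TXN2 was at -0.0022 and GLRX3 at -0.016. With no filter GLRX3 was at -0.0010 and GCLC at -0.0027. By limma PRDX2 was at -0.094 and GCLC at -0.0047 (pseudocount 1), and -0.14 and -0.0096 (0.1).

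With 1 library left out the ranges were -0.23 to 0.15 for GLRX5, -0.089 to 0.088 for TXN2, -0.079 to 0.069 for GLRX3, -0.12 to 0.15 for GCLC, -0.031 to 0.40 for PRDX2, -0.11 to 1.22 for GPX1 and -0.30 to 0.11 for GSS. They were -0.20 to 0.059 for PRDX5, -0.69 to 2.98 for GPX3, -0.021 to 0.066 for PRDX4, -0.15 to 0.17 for SOD2, -0.58 to 0.069 for SRXN1 and -0.020 to 0.24 for GCLM.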
